A study of Mus musculus with 16 samples.

Results

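The keratin genes (Krt) and the keratin-associated protein genes (Krtap) were examined for histone marks in haploid spermatids of mice with and without the histone variant H2A.B. They were taken as every autosomal protein-coding gene of the GENCODE vM21 annotation (mm10) whose symbol is Krt followed by a digit or starts with Krtap. This gave 110 of 20807 autosomal protein-coding genes, 53 Krt and 57 Krtap, and the rule itself uses symbols and no measured value. The spermatids had been profiled by AutoCUT&RUN, in which an antibody holds micrococcal nuclease at its target and the DNA that the enzyme cuts free is sequenced. There were 16 libraries in 8 groups of 2, with antibodies to H3K4me3, H3K27me3 and H3K9me3 and with IgG, an antibody without a chromatin target. The knockout males (KO, ΔH2A.B/Y) carried deletions within all 3 X-linked H2A.B genes, made with CRISPR/Cas9 in B6;SJLF1/J zygotes and then backcrossed to C57BL/6J, and the wild-type males (WT, +/Y) were their siblings. Each of the 2 replicates was 1 unmated pair of KO and WT siblings at 2 months of age, all KO males descended from a single edited line, and the cells of every animal had been sorted in the same way with Hoechst and propidium iodide.

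Keratins are the intermediate filament proteins of epithelia, and a filament needs a type I and a type II keratin together. Type I genes lie in a cluster on mouse chromosome 11 and type II genes in a cluster on chromosome 15, with the type I gene Krt18 at the edge of the latter next to its partner Krt8. Keratin-associated proteins are small proteins, rich in cysteine or in glycine and tyrosine, that fill the space between the filaments of the hair shaft. H3K27me3 is laid down by Polycomb complexes at genes kept silent in a cell type, H3K9me3 marks heterochromatin, and H3K4me3 marks the starts of active or poised genes.

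The members fell into 6 clusters when neighbours within 500 kb were joined. The chromosome 15 cluster held 26 Krt genes over 684.6 kb (chr15:101347444-102032027). The chromosome 11 cluster held 27 Krt and 23 Krtap genes over 1037 kb (chr11:99232761-100269871), with the Krtap genes in a block between the Krt genes. A further 24 Krtap genes lay on chromosome 16 over 960.5 kb (chr16:88610705-89571183), 5 on chromosome 7 (chr7:142174535-142304594), 3 on chromosome 10 (chr10:77720599-77837252) and 2 on chromosome 1 (chr1:83041524-83061921). Krtap genes were short, with a median length of 892 bp against 6594 bp for Krt genes and 17630 bp for all genes.

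The promoters printed here are those of genes to which the results return: the simple epithelial pair Krt18 and Krt8, Krt73 with both H3K4me3 and H3K27me3, and 3 Krtap genes each with a different mark. Each sequence runs 5′ to 3′ on the strand of its gene from 250 bp before to 50 bp after the start of the RefSeq transcript (GRCm38.p6). Capitals mark CG dinucleotides and TATAAA on either strand. A CG cannot overlap a TATAAA, but TATAAA matches on opposite strands can overlap, as in Krt8 (TTTATAAA). The positions are chr15:102027966-102028265 (plus strand) for Krt18, chr15:102004293-102004592 (minus) for Krt8, chr15:101802311-101802610 (minus) for Krt73, chr11:99993945-99994244 (minus) for Krtap17-1, chr11:99598057-99598356 (minus) for Krtap9-3 and chr16:89403725-89404024 (minus) for Krtap21-1.
Krt18: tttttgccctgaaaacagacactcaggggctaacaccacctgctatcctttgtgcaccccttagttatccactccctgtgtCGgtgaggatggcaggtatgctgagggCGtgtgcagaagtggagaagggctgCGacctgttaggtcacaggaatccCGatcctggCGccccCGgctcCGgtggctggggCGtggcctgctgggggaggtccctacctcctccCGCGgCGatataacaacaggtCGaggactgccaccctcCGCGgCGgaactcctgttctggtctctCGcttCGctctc
Krt8: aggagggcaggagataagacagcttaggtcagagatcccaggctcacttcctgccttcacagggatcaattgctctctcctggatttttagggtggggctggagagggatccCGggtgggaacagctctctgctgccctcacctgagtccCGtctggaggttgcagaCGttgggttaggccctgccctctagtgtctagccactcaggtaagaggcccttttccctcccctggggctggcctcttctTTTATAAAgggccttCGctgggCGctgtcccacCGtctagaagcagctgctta
Krt73: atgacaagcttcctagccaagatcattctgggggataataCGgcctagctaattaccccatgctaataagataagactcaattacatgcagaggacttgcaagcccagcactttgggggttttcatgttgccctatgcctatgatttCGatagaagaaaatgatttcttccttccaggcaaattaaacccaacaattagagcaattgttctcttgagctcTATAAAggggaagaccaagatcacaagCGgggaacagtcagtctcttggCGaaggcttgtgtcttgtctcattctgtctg
Krtap17-1: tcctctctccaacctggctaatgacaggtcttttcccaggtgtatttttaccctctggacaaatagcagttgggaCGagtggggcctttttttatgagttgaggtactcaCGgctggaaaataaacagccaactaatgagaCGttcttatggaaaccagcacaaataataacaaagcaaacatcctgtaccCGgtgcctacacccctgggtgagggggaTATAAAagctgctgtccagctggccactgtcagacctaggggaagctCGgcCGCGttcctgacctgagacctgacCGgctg
Krtap9-3: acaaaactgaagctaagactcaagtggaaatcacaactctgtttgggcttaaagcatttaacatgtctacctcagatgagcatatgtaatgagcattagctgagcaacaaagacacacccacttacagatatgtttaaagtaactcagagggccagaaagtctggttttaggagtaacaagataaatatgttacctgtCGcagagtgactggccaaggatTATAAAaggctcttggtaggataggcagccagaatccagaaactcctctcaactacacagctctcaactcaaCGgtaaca
Krtap21-1: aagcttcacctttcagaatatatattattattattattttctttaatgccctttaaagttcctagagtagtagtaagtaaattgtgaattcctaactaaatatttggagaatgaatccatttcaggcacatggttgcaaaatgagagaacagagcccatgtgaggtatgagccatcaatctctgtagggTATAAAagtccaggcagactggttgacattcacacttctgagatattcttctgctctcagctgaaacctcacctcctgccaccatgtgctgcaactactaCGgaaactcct

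Krt18 had 17 CG dinucleotides in these 300 bases and no TATAAA, whereas Krtap21-1 had 1 CG and a TATAAA. The RefSeq table held 37 promoters of 36 Krt genes and 51 promoters of 51 Krtap genes. The Krt promoters had a median of 5 CG dinucleotides (2 to 21) and 51.35% of them held TATAAA on either strand. The Krtap promoters had a median of 2 (0 to 9), 19.61% of them had no CG, and 82.35% held TATAAA. Among all 31396 autosomal promoters of that length the median was 7, 5.246% had no CG and 13.62% held TATAAA. Both families thus had a lower median of CG and a higher share with TATAAA than all promoters, while no Krt promoter (0%) was without CG. These matches of letters are a description and not sites of binding.

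The files held between 559891 and 10335237 fragments a library, of which 33.6% to 83.4% repeated the coordinates of another fragment and were counted once. This left 140181 (IgG, WT replicate 2) to 3963850 (H3K9me3, KO replicate 1) distinct autosomal fragments, and only 196218 for H3K27me3 in WT replicate 2. Starts of 8 round spermatid genes, among them those of the protamines and transition proteins, had a mean H3K4me3 density of 21 (17.6 to 23.8 in the 4 libraries), while 4 Sertoli cell genes stood at 0.991, 4 Leydig cell genes at 0.28 and 4 genes of undifferentiated spermatogonia at 5.5. Density is given throughout as distinct fragments per kb divided by the mean over the autosomes of the same library, so that 1 is the autosomal mean. The edited alleles keep most of each H2A.B gene, so the few fragments there, for instance 8 in KO and 2 in WT at H2afb1 over all targets, check no genotype. More cells of a type and more signal per cell cannot be told apart in such sorted populations.

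Within 1 kb of the gene starts the members as a whole carried H3K27me3, little H3K4me3, and H3K9me3 at a mean close to that of IgG (1.35 ± 0.245 and 1.16 ± 0.317). Over the 4 libraries of each target they drew 4731 H3K27me3 fragments, 1700 H3K9me3 fragments, 483 H3K4me3 fragments and 70 IgG fragments. A mean density above 1 was reached by 52 of the 110 starts for H3K27me3, by 29 for H3K9me3, 23 of them on chromosome 16, by 8 for H3K4me3 and by 28 for IgG. Among all genes the shares above 1 were 38.2%, 12.29%, 62.13% and 36.65% in the same order. By this share the members stood below the genome for H3K4me3 and above it for H3K27me3 and H3K9me3. In IgG every start with any fragment had a mean above 1, among the members and among all genes. The IgG share therefore counts starts with a fragment and is not read as a level. For H3K27me3 a mean above 1 can rest on 1 fragment, since 1 fragment in WT replicate 2 is a start density of 6.27. By mean start density they were below all genes for each mark, at 6.34 against 8.54 for H3K27me3, 1.35 against 7.3 for H3K9me3 and 0.721 against 11 for H3K4me3. IgG was lower too, at 1.16 against 5.48, so the lower means are not read as particular to the marks. The H3K9me3 mean of 7.3 over all genes lay far above their upper quartile of 0.546. The medians of the marks, in the same order, were 0.738 against 0.449, 0.279 against 0.276 and 0.151 against 4.08. No fragment was seen at 19, 13, 25 and 82 of the 110 starts for H3K27me3, H3K9me3, H3K4me3 and IgG.

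The families differed in the density of H3K27me3 and H3K9me3 at their starts, in opposite directions, for H3K9me3 through the chromosome 16 genes described below. Summed over the 53 Krt starts, the H3K27me3 density was 11.1 in KO replicate 1, 7.02 in KO replicate 2, 11.9 in WT replicate 1 and 11 in WT replicate 2, a mean of 10.25 ± 2.19 (SD, n = 4 libraries). Over the 57 Krtap starts it was 3.66, 1.7, 3.39 and 2.09 in the same order, a mean of 2.71 ± 0.962. Each library had more H3K27me3 over Krt than over Krtap starts, and the log2 ratio of Krt to Krtap was 1.96 ± 0.34 (1.60 to 2.40).

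H3K9me3 lay the other way round. Its density over Krt starts, in the same order of libraries, was 0.27, 0.535, 0.327 and 0.481, and over Krtap starts 2.15, 2.765, 1.86 and 2.15. The log2 ratio of Krt to Krtap was -2.51 ± 0.36 (-2.997 to -2.158), with the opposite sign to H3K27me3 in all 4 libraries. H3K4me3 was low in both families, at 1.02 ± 0.22 over Krt and 0.439 ± 0.102 over Krtap starts, against a mean of 11 over all gene starts, with a log2 ratio of 1.22 ± 0.30. In IgG 12 fragments fell on Krt and 58 on Krtap starts, a log2 ratio of -2.22 ± 0.84, so that the IgG background itself leaned to Krtap. Krtap windows repeat more in the genome: a median of 84.22% of their 25-mers at starts were unique against 94.33% for Krt, and 19 Krtap and 5 Krt starts were under 75%. Without those starts the log2 ratio moved to -0.60 in IgG and to 0.85 for H3K4me3, while for H3K27me3 and H3K9me3 it moved by less than 1 SD.

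**Figure D1:**
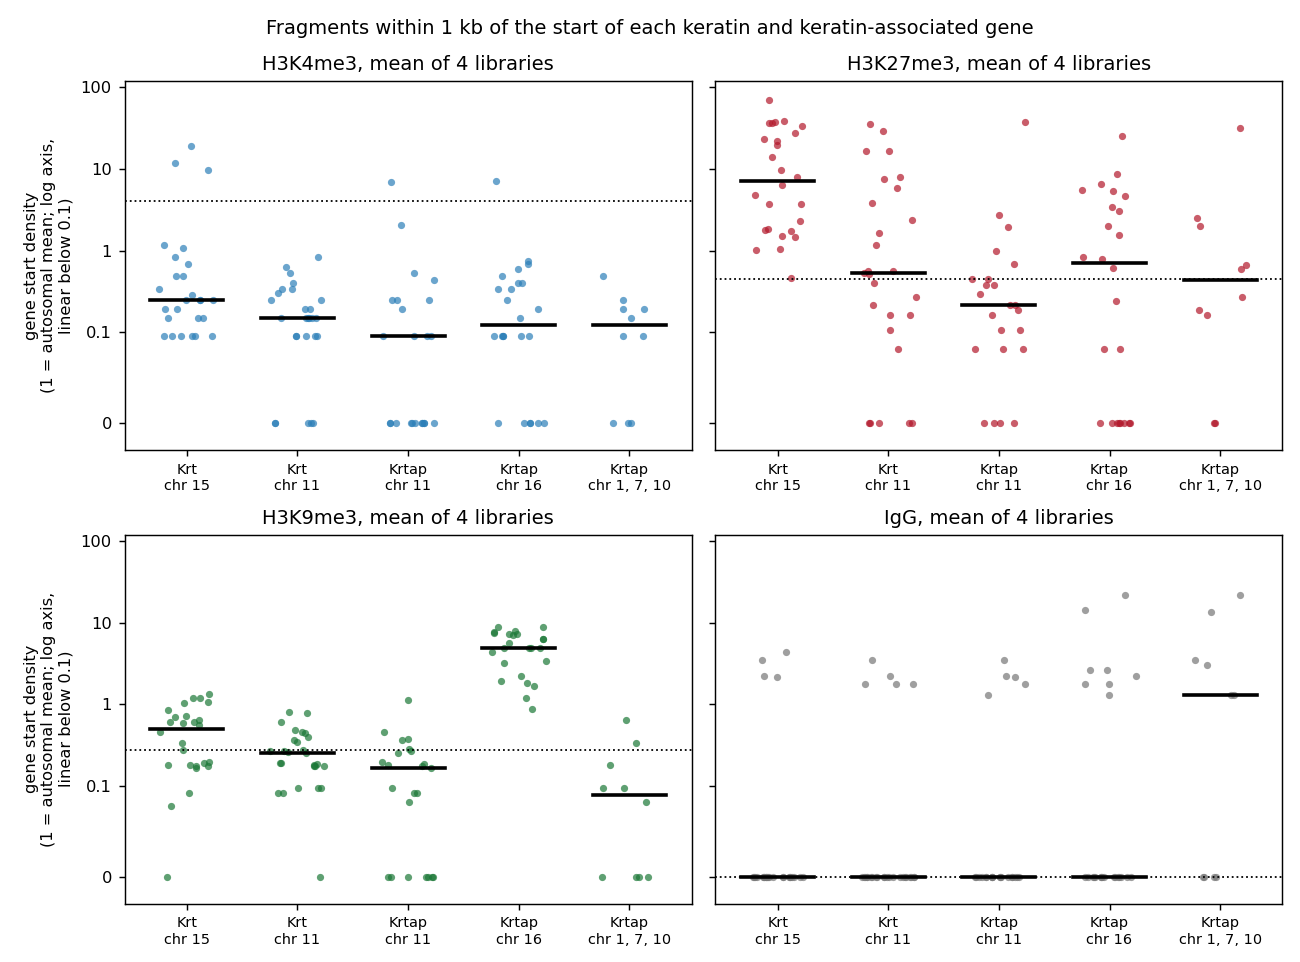
Mean density within 1 kb of the gene start (fragments per kb relative to the autosomal mean, log axis that is linear below 0.1) for every Krt and Krtap gene by chromosome, in a panel for each target. Each point is 1 gene averaged over 4 libraries, black bars are medians of the group and the dotted line is the median of all genes; Krt genes of chromosome 15 stand high for H3K27me3 and Krtap genes of chromosome 16 for H3K9me3.

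H3K27me3 split by chromosome as well as by family. The 26 Krt genes of chromosome 15 had a density of 16.5 and 10.85 in the KO and 18.05 and 17.85 in the WT libraries, and 25 of them were above 1 with a median of 7.2. Some of the 25 rested on few fragments over the 4 libraries: Krt78 drew 3, Krt1, Krt5 and Krt83 each drew 4, and Krt80 drew 5. The 27 Krt genes of chromosome 11 had 5.88, 3.33, 5.95 and 4.41, and 11 of them were above 1 with a median of 0.531. In each of the 4 libraries the type II cluster was above the type I cluster. Krtap genes of chromosome 11 had 3.23, 1.25, 2.93 and 0.818, and 3 of 23 were above 1. Krtap genes of chromosome 16 had 3.18, 2.25, 3.17 and 2.875, and 10 of 24 were above 1, whereas the pair on chromosome 1 reached 27.2, 6.29, 23 and 12.5. In that pair Krtap28-13 drew 274 fragments and Krtap28-10 drew 11.

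Called over IgG by a quasi-Poisson fit across all genes (Benjamini-Hochberg at 0.05), H3K27me3 was higher at 26 of the 45 member starts with enough fragments to test, against 71.7% of the genes tested. Those 45 are the starts with at least 10 fragments in the 8 libraries compared, and the other members were not tested. The IgG libraries held 70 fragments over all 110 starts, so nearly all of the 45 passed this filter through H3K27me3 itself, and their calls are a description. Of the 26, 20 were Krt genes and 6 Krtap genes (Krtap11-1, Krtap17-1, Krtap22-2, Krtap24-1, Krtap26-1 and Krtap28-13). The count fell to 14 without WT replicate 1, to 15 without KO replicate 1 and to 17 without WT replicate 2, and limma-voom gave 19.

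By the epithelium in which the keratins are made, the inner root sheath keratins had the highest H3K27me3 at their starts. Over gene bodies the suprabasal and mucosal list was highest, at 6.86 ± 1.5, beside 5.39 ± 1.75 for the simple epithelial and 5.33 ± 1.05 for the inner root sheath list, with spreads that overlapped. These are the keratins of the sheath that moulds the growing hair and of its companion layer (Krt25 to Krt28, Krt71 to Krt73 and Krt75). Their start density was 28.2 and 16.2 in KO and 27.5 and 25.1 in WT. All 8 were above 1 (38.2% of all genes) and called over IgG (71.7% of all genes tested). Their median of 25.45 was above that of 87.6% of genes. They passed the filter through H3K27me3 itself, so their calls are a description, as are those of the keratin lists below. Krt25, a type I keratin of the sheath, drew 253 H3K27me3 fragments and Krt75, the type II keratin of the companion layer, 244, with none in IgG. Counted against a floor of 3 IgG fragments over the 4 IgG libraries, these are at least 7.77-fold and at least 7.49-fold higher. Krt28 was the lowest of the 8, with 35 fragments against 0 and a bound of at least 1.07-fold.

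The simple epithelial keratins came next, with densities of 12.8, 8.21, 13.5 and 19.7, and 5 of 7 were above 1. Krt8 and Krt18, the partners that form the first filaments of embryonic and glandular epithelia, were the ones called at their starts. Krt18 had H3K27me3 densities of 39.8 and 21.6 in KO and 43 and 43.9 in WT, from 241 fragments against 1 in IgG, a 22.2-fold ratio with an exact 95% counting interval of 3.947 to 880.5 (quasi-Poisson fit, adjusted p = 0.00124). Krt8 had 34.25, 32.3, 35.7 and 50.2, from 214 fragments against 0, at least 6.57-fold higher (quasi-Poisson fit, adjusted p = 0.000601). Neither gene was called in the comparison of KO with WT.

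Krt7 and Krt19, keratins of ducts and simple linings, were called for H3K27me3 over the gene body. Neither was called at the annotated start, where Krt19 drew 6 fragments, too few to be tested. At the Krt7 start the density was 8.48, 1.8, 8.6 and 37.6, the last from only 6 fragments, and the start was not called (53 fragments against 1, quasi-Poisson fit, adjusted p = 0.115). That start was still above 82.21% of genes, and above the Krt7 body in 3 of 4 libraries. Over the 19271-bp Krt7 gene it was 7.59, 6.9, 8.12 and 11.1, from 460 fragments against 3, a 14.1-fold ratio with an interval of 4.803 to 68.74, and the gene was called. Its densest 500 bp lay 1850 bp inside the gene, 444 bp from another annotated Krt7 start. At the Krt19 start the density was 1.63, 0, 0.43 and 0, whereas over the Krt19 gene 214 fragments stood against 0, at least 6.57-fold higher, and the densest 500 bp lay 860 bp from another Krt19 start.

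The other simple epithelial keratins were Krt20, Krt23 and Krt80, and none was called over its body. The Krt20 start was tested and not called. The starts of Krt23 and Krt80 drew 4 and 5 fragments, under the filter of 10, and were not tested. The mean start densities of the 3 genes were above those of 71.02%, 45.74% and 70.76% of genes. Krt20, a keratin of the gut lining, had 4.24, 0, 5.16 and 0 at its start and 0.67, 0.369, 0.794 and 1.29 over its body. Krt23 had 0.326, 0, 1.29 and 0 at its start, and Krt80 had 0.652, 1.8, 0.43 and 6.27, the last from 1 fragment.

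The suprabasal and mucosal keratins, made as epidermal and oral cells leave the basal layer, had start densities of 9.785, 5.84, 10.9 and 10.45, with 10 of 12 above 1 and Krt2, Krt4, Krt24 and Krt79 called. Of these 10, Krt10 drew only 2 fragments, Krt78 drew 3 and Krt1 drew 4. Krt24 had 25.1, 3.59, 24.9 and 12.5, from 139 fragments against 1, a 12.8-fold ratio with an interval of 2.261 to 509.3 (quasi-Poisson fit, adjusted p = 0.00656). The 15 hair shaft keratins had 8.89, 6.11, 10.4 and 6.27, with 8 above 1 and Krt35, Krt81, Krt82 and Krt87 called. Much of that came from Krt87, a type II hair keratin of chromosome 15. It had 90.02 and 59.3 in KO and 92.85 and 37.6 in WT, the highest H3K27me3 start density of all members and above that of 99.19% of genes, from 531 fragments against 2, a 24.5-fold ratio with an interval of 6.737 to 202.5 (quasi-Poisson fit, adjusted p = 0.000747). The basal and wound keratins had the least, at 1.35, 2.82, 2.09 and 0.896, with 3 of 7 above 1 and Krt6b called.

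Among the other strongly marked starts, Krt26, an inner root sheath keratin, had 19.6, 14.4, 19.8 and 12.5, from 116 fragments against 1, a 10.7-fold ratio with an interval of 1.88 to 425.7. Krtap17-1, a cysteine-rich protein gene at the edge of the chromosome 11 Krtap block, had 63.9 and 18 in KO and 56.7 and 12.5 in WT, from 340 fragments against 0, at least 10.4-fold higher (quasi-Poisson fit, adjusted p = 0.000511). Its neighbours in that block did not share the mark, since 3 of the 23 Krtap genes there were above 1. Krtap28-13 on chromosome 1 had 52.5, 12.6, 44.3 and 18.8, from 274 fragments against 2, a 12.6-fold ratio with an interval of 3.46 to 104.7. Its densest 500 bp lay 1350 bp before the gene and 202 bp from the start of A030005K14Rik, a neighbour that is no member. For Krtap17-1 and Krtap28-13 the 2 replicate 1 libraries were far above the 2 replicate 2 libraries in both genotypes.

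**Figure D2:**
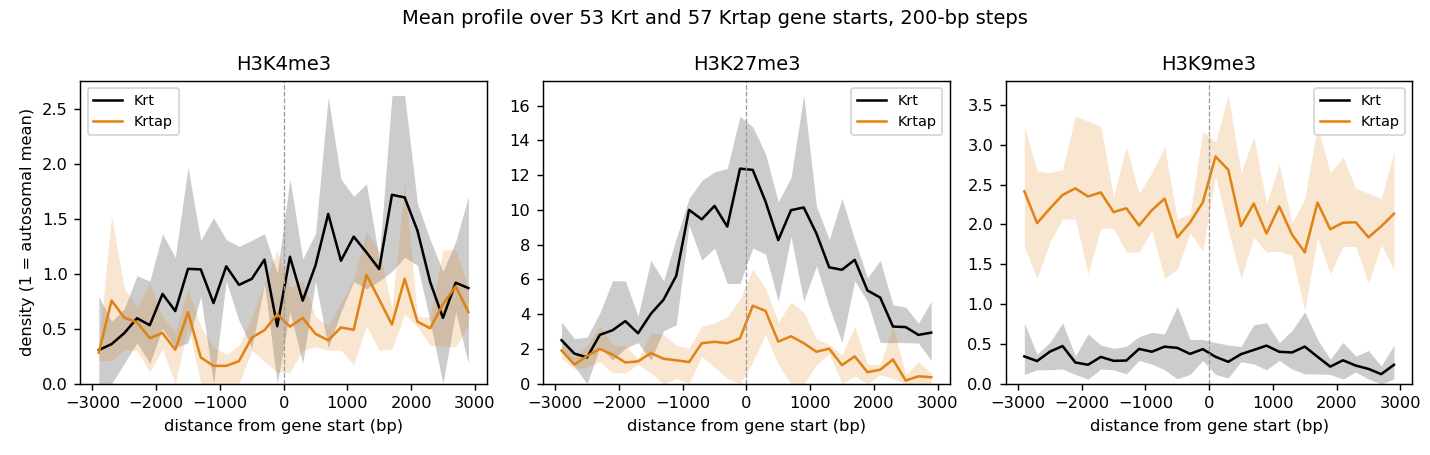
Mean density of each mark in 200-bp steps from 3 kb before to 3 kb after the gene start, averaged over the Krt genes (black) and the Krtap genes (orange), with bands from the lowest to the highest of 4 libraries. H3K27me3 is highest near the Krt starts, H3K9me3 is raised across the whole Krtap range, and H3K4me3 stays low.

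Genes that act with keratins, none of them members, were looked at in the same way for H3K27me3. At their starts 6 of 7 desmosome and plakin genes were called over IgG (Dsp, Evpl, Jup, Pkp1, Plec and Ppl, with a list mean of 31.9), as were 6 of 9 regulators of keratin genes (Dlx3, Gata3, Grhl3, Hoxc13, Lef1 and Msx2, with a list mean of 36.8). Among other intermediate filament genes 4 of 7 were called (Des, Nes, Prph and Vim), and among cornified envelope genes 3 of 9 (Lor, Tchh and Tgm1). Of the 4 lists 7, 7, 5 and 3 genes were tested, and the same fit called 71.7% of all genes it tested, so these counts are read no further. As a check on gene clusters of another kind, the starts of 1128 olfactory receptor genes had a mean H3K27me3 density of 0.336 and a mean H3K9me3 density of 0.592. The H3K9me3 value was under that of the chromosome 16 Krtap starts and above those of the Krt starts and of the Krtap starts on the other 4 chromosomes.

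Krt starts with more CG had more H3K27me3. In the 2-kb window around the start Krt genes had a median of 34 CG dinucleotides, Krtap genes 16 and all genes 64. Across the 53 Krt genes the Spearman correlation of H3K27me3 start density with the number of CG was 0.60, and across the 57 Krtap genes it was 0.25. For H3K9me3, called at no Krt start, the correlation across Krt genes was 0.47. The mean H3K9me3 density over these starts was 0.403, beside 0.438 in IgG, so that correlation ranks values no higher than IgG. These are correlations across genes, which share libraries and clusters and are not independent. The 20 Krt genes called over IgG had a median of 43 CG and the other 33 a median of 28, and the 6 called Krtap genes had 33 against 14 for the other 51. Only 30 of the 53 Krt and 15 of the 57 Krtap starts were tested, so the others include many untested genes. The called genes passed the filter through H3K27me3 itself, so these medians add no support to the correlation. Krt87, Krt18 and Krt8 had 69, 65 and 54, and the promoter of Krt18 printed above shows that density of CG.

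**Figure D3:**
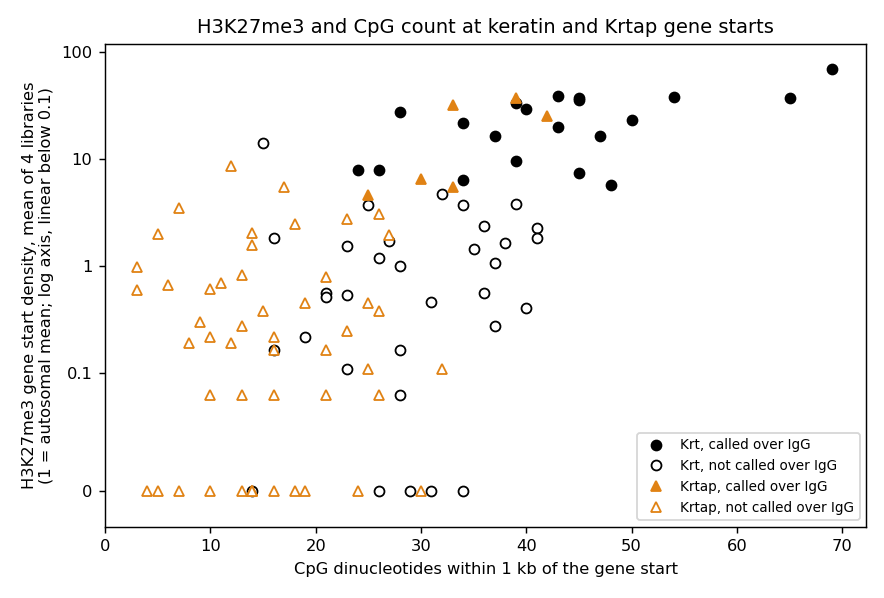
H3K27me3 density within 1 kb of the gene start (mean of 4 libraries, fragments per kb relative to the autosomal mean) against the number of CG dinucleotides in the same 2-kb window, for Krt and Krtap genes. Filled points are genes called over IgG, which passed the filter through H3K27me3 itself, with a median of 43 CG for Krt and 33 for Krtap. Open points include genes with too few fragments to be tested.

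H3K9me3 was concentrated on the chromosome 16 Krtap cluster. Its 24 starts had densities of 5.02 and 6.32 in KO and 4.185 and 4.69 in WT, and 23 of the 24 were above 1 with a median of 4.95, above that of 97.52% of genes. IgG at the same starts had 1.52 and 1.46 in KO and 1.09 and 4.02 in WT, so in WT replicate 2 it came near H3K9me3. Of the 24 gene bodies all were above 1 for H3K9me3. Over these bodies IgG in WT replicate 2 (5.54, with 10 fragments in Krtap6-2) was above H3K9me3 (4.11). In the other libraries it was below, at 0 to 0.885 against 3.45 to 5.51. Krtap genes elsewhere were low: 0.192 on chromosome 11 (1 of 23 above 1), 0.072 on chromosome 7, 0.146 on chromosome 10 and 0.324 on chromosome 1. Krt starts had 0.524 on chromosome 15 and 0.287 on chromosome 11. The H3K9me3 excess of Krtap over Krt was therefore a property of 1 of the 5 Krtap locations.

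The mark covered the chromosome 16 cluster as a block and not gene by gene. Over the 960.5 kb from Krtap24-1 to Krtap11-1 the H3K9me3 density was 5.84 and 6.32 in KO and 4.55 and 4.9 in WT, from 29937 fragments, against 0.792 to 1.28 in the IgG libraries, a 5.84-fold ratio. In 10-kb bins, 95 of 97 had a mean above 1 and 73 were above the 95th percentile of all autosomal bins, which was 3.3. The median bin of the cluster was 5.94 and that of the autosomes 0.222. The 500 kb on either side had 1.36 before and 1.84 after the cluster, so the level fell at both edges. H3K27me3 and H3K4me3 averaged 0.755 and 1 over the same block.

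**Figure D4:**
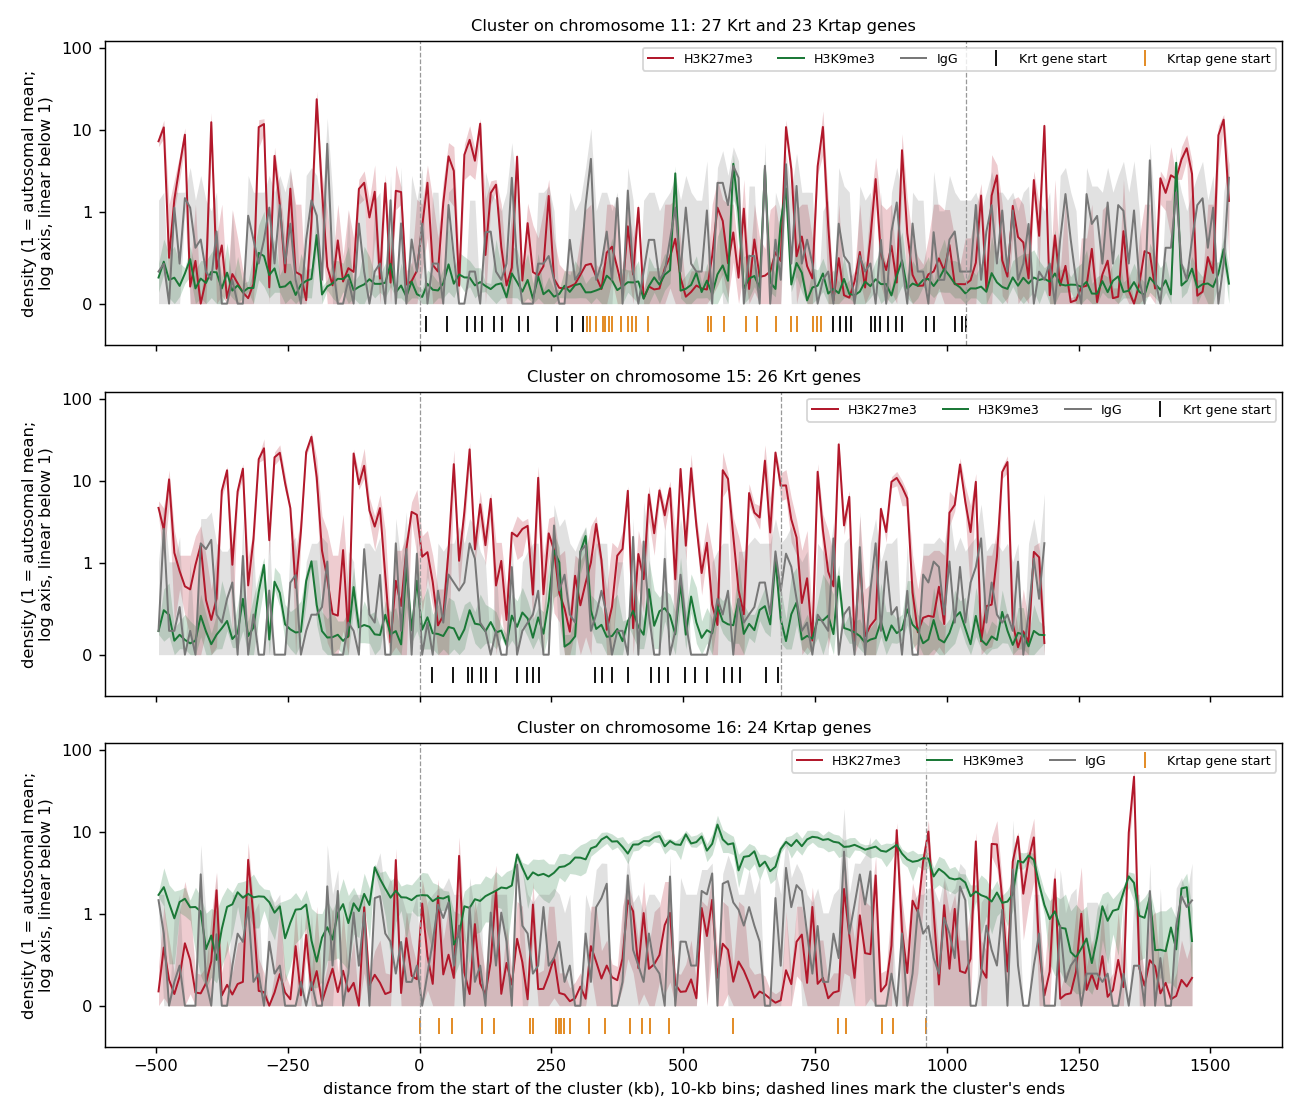
Density in 10-kb bins over the clusters of chromosomes 11, 15 and 16 with 500 kb on either side, for H3K27me3, H3K9me3 and IgG; lines are means of 4 libraries and bands run from the lowest to the highest library. H3K9me3 is raised over nearly the whole chromosome 16 cluster (95 of 97 bins above 1), and H3K27me3 over much of the chromosome 15 cluster (46 of 69 bins above 1).

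The genes of that cluster code mainly for small proteins rich in glycine and tyrosine. Krtap21-1, whose promoter is printed above, had the highest H3K9me3 start density, with 40 and 24 fragments in KO and 27 and 15 in WT, or densities of 12.4, 8.84, 8.83 and 5.885. Over its 651-bp body the density was 22, 10.2, 14.1 and 6.03. Krtap6-5 had body densities of 13.6, 8.67, 13.2 and 13.2. Krtap6-1 had 9.41, 7.44, 8.82 and 14.5, Krtap16-3 had 5.17, 15.9, 10.9 and 7.84, and Krtap6-2 had 7.11, 9.37, 8.33 and 15. In all 5 of these bodies the KO and WT libraries overlapped. Krtap bodies were the less unique regions, with a median of 70% of 25-mers unique and 34 of 57 under 75%, and Krtap6-2 had 65.75%.

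Gene by gene the H3K9me3 excess over IgG could not be called. The quasi-Poisson fit called 0 of the 35 member starts tested, 7 had an unadjusted p under 0.05 and limma-voom called 0, against 0.255% of all genes tested. The 7, all of chromosome 16, were Krtap6-1, Krtap8-1, Krtap16-3, Krtap19-9b, Krtap20-2, Krtap21-1 and Krtap22-2, and the smallest adjusted p was 0.203 for Krtap21-1 (106 fragments against 0). Over gene bodies the fit called 0 of 49 tested, none had an unadjusted p under 0.05, and limma-voom called 1, Krtap15 (165 fragments against 1), against 0.848% of all genes. At H3K27me3 the same IgG libraries left starts with fewer fragments called, such as Krt28 with 35 against 0, and the reason for the difference was not tested.

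H3K27me3 and H3K9me3 were also set against each other at the member starts. Most starts entered this comparison through the mark that they carry, so the counts describe these genes and are no support for the split. At starts with at least 10 fragments, H3K27me3 was higher than H3K9me3 at 39 of 59 members (76.3% of all genes tested were higher) and lower at 18 (12.5% of all genes). The 39 were all 30 Krt genes tested and 9 Krtap genes, and the 18 were all Krtap genes of chromosome 16. On chromosome 16 itself the tested starts were all 24, of which Krtap11-1, Krtap13, Krtap24-1 and Krtap26-1 were higher in H3K27me3. These 4 code for proteins of the sulfur-rich kind, and Krtap24-1 and Krtap11-1 are the outermost genes of the cluster. Krt87 had a log2 ratio of H3K27me3 to H3K9me3 of 6.97 (SE 0.92), and Krtap6-5 one of -3.28 (SE 0.82). Some starts carried both. Krtap11-1 had H3K27me3 start densities of 33.3, 21.6, 33.5 and 12.5 and H3K9me3 start densities of 6.83, 4.79, 4.25 and 3.92. Krtap22-2, a gene inside the cluster, had an H3K27me3 density of 9.46, 1.8, 7.31 and 0 and an H3K9me3 density of 6.21, 7.73, 3.27 and 5.1, and the difference between the 2 marks was not called (log2 ratio 0.47, SE 0.35). The mean densities, 4.64 for H3K27me3 and 5.58 for H3K9me3, ran the other way, so neither mark is read as the higher.

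Over whole clusters H3K27me3 was widest on chromosome 15. From Krt80 to Krt18 its density was 3.76 and 3.51 in KO and 4.23 and 4.6 in WT, 7.22-fold that of IgG, and 46 of 69 bins were above 1 against 12.86% of autosomal bins. These densities are scaled to the autosomal total. A median-of-ratios factor was also taken, over the autosomal 10-kb bins with a fragment in all 4 libraries. It stood at 1.79 times that scale for WT replicate 2 and at 0.784 times for KO replicate 1. The choice of bins favours those in which the thin WT replicate 2 library has a fragment. No order of KO and WT is read from H3K27me3 densities. The flanks had 6.4 before and 3.955 after the cluster, against a mean of 4.03 within it, so the cluster lay below one flank and near the other. On chromosome 11 the Krt genes from Krt222 to Krt40 had 2.09, 1.34, 2.11 and 1.9, the Krtap block from Krtap3-3 to Krtap17-1 had a mean of 0.922 or 0.96-fold that of IgG, and the Krt genes from Krt33a to Krt42 had 0.653. The stretch of the pair on chromosome 1 had 10.5, 3.35, 9.49 and 7.38, and it also holds the start of A030005K14Rik, which is no member. Chromosome 7 had 1.64 beside 1.45 in IgG, and chromosome 10 had 0.371. The stretches on chromosomes 7 and 10 and the Krtap block of chromosome 11 were thus at or near the IgG level for H3K27me3.

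H3K4me3 was present at few members. The quasi-Poisson fit called 5 of the 10 member starts tested as higher than IgG, against 75% of all genes tested. Of the others, Krtap5-3, Krtap5-5, Krtap6-2 and Krtap6-3 had 1 to 3 H3K4me3 fragments and were tested only through their IgG fragments. The other members had under 10 fragments in the 8 libraries, for a mark whose median density over all gene starts was 4.08. The 5 higher were Krt73, Krt88, Krt8, Krtap9-3 and Krtap24-1. Each of them passed the filter through H3K4me3 itself, with at most 2 IgG fragments, so their calls are a description. Without 1 animal the count was 1 (KO replicate 1), 3 (KO replicate 2), 2 (WT replicate 1) or 3 (WT replicate 2), and with 500 bp on either side it was 1.

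Krt88, a type II keratin next to Krt87, had the highest H3K4me3, at start densities of 27.65 and 19.8 in KO and 10.4 and 19.3 in WT. It drew 118 fragments against 2 in IgG, a 5.65-fold ratio with an interval of 1.531 to 47.23 (quasi-Poisson fit, adjusted p = 0.0108), both IgG fragments being in WT replicate 1. Its H3K27me3 densities of 3.91, 1.8, 3.01 and 6.27 were above 1 in all 4 libraries and above 74.26% of genes, but far under those of its neighbour Krt87, which had almost no H3K4me3 (0 to 0.602). Over the Krt88 body 302 fragments stood against 2, a 14.5-fold ratio with an interval of 3.971 to 120, with densities of 21.5, 16, 16.4 and 15.1. The densest 500 bp lay 1650 bp inside the 6164-bp gene.

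Krt73 and Krt8 carried H3K4me3 together with H3K27me3. Krt73, a type II keratin of the inner root sheath, had H3K4me3 densities of 13.8, 11.05, 8.69 and 13.9, from 71 fragments against 0, at least 2.27-fold higher (quasi-Poisson fit, adjusted p = 0.00481). Its H3K27me3 densities were 23.5, 12.6, 26.2 and 25.1, from 144 fragments. Both marks were found in the start window, and their densest stretches differed: the densest 500 bp of H3K4me3 lay 812 bp before the start and that of H3K27me3 888 bp after it. Krt8 had H3K4me3 densities of 12.8, 5.72, 15.6 and 4.82, from 45 fragments against 0, at least 1.44-fold higher (quasi-Poisson fit, adjusted p = 0.0224). Both genotypes of Krt8 were high in replicate 1 and low in replicate 2, and its densest H3K4me3 lay 9034 bp from the start, outside the 7785-bp gene.

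The called Krtap starts differed from each other. Krtap9-3, a cysteine-rich Krtap gene of chromosome 11, had H3K4me3 densities of 10.9 and 6.86 in KO and 5.21 and 4.82 in WT, from 40 fragments against 0, at least 1.28-fold higher (quasi-Poisson fit, adjusted p = 0.0306). It had almost no H3K27me3, at 0.326, 0, 0.43 and 0, and its densest H3K4me3 lay 1308 bp from the start, past the end of the 759-bp gene. Krtap24-1, the first gene of the chromosome 16 cluster, had H3K4me3 at 5.925, 6.1, 10.4 and 6.02, H3K27me3 at 9.13, 1.8, 11.2 and 0, and H3K9me3 at 1.55, 4.05, 0.9815 and 0.785. It was called over IgG for the first (38 fragments, quasi-Poisson fit, adjusted p = 0.0347) and for the second (55 fragments, adjusted p = 0.0187), and the difference between the 2 marks was not called (log2 ratio -0.48, SE 0.35, adjusted p = 0.187), and the mean densities, 7.12 for H3K4me3 and 5.53 for H3K27me3, ran the other way.

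In the comparison of H3K4me3 with H3K27me3, 44 members were tested, 2 were higher (61.6% of all genes) and 36 lower (32% of all genes). The 2 were Krt88, with a log2 ratio of 2.55 (SE 0.41), and Krtap9-3, with 4.38 (SE 1.08). The lower ones were 26 Krt and 10 Krtap genes. Against H3K9me3, 36 were tested, and H3K4me3 was higher at 5 (78.3% of all genes), the same 5 that were called over IgG, and lower at 25 (8.03% of all genes), namely 22 Krtap genes, all of chromosome 16, and Krt2, Krt18 and Krt72. Only 6 member starts had 10 or more H3K4me3 fragments in the 4 libraries of that mark, so most of the members tested passed the filter through the other mark, in which they are high, and the counts of lower members are read no further.

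Over gene bodies H3K4me3 was higher than IgG at 6 of 25 members tested, against 44.1% of all genes: Krt6a, Krt8, Krt10, Krt73, Krt77 and Krt88. These 6 too passed the filter through H3K4me3 itself, so their calls are a description. The count was 3 without WT replicate 2. Krt10, the type I keratin of suprabasal epidermis, had body densities of 6.25, 6.49, 5.92 and 6.45, a narrow range over the 4 libraries, from 77 fragments against 0, at least 2.46-fold higher. Its densest 500 bp lay 3460 bp from the annotated start and 193 bp from the start of another Krt10 transcript, and its annotated start drew almost no H3K4me3. Krt6a, a keratin of wounded epidermis, had 2.7, 6.24, 3.95 and 4.11, with its densest 500 bp at 751 bp from the start of the antisense gene Gm49428, and the strand of a CUT&RUN fragment does not tell these apart. Only 50.8% of the 25-mers of the Krt6a body were unique. Krtap9-3 had body densities of 15.6, 9.04, 4.58 and 6.35 and Krtap24-1 of 7.53, 7.26, 6.62 and 6.12, and neither body was called.

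H3K27me3 over gene bodies was higher than IgG at 23 of 50 members tested, against 28% of all genes, 20 Krt and 3 Krtap genes (Krtap11-1, Krtap17-1 and Krtap28-13). Here too nearly all of the 50 passed the filter through H3K27me3, so nothing is read from their share beside that of all genes. The count was 13 without WT replicate 1. Krtap11-1, at the far end of the chromosome 16 cluster, had the highest body density, with 51.15 and 32.1 in KO and 49.5 and 24.9 in WT, from 148 fragments against 2. Krtap17-1 had 66, 9.45, 49.7 and 16.5, Krtap28-13 had 42.1, 21.7, 45.1 and 12.65, and Krt8 had 14.2, 12.5, 15.7 and 32.2. Krt8 was the one among these in which the thin WT replicate 2 library was the highest. Krt1 and Krt77, keratins of suprabasal epidermis and sweat glands, were called over their bodies, with the densest 500 bp at 4918 bp and 9924 bp from the start. The Krt77 start was tested and not called, and the Krt1 start, with 4 fragments, had too few to be tested. The body ratio of Krt to Krtap was smaller than at starts for H3K27me3, at a log2 of 0.67 ± 0.33 (0.30 to 1.09), and for H3K9me3 it was -2.99 ± 0.40. Most Krtap genes are shorter than the 1 kb that the start window covers on each side, so their start and body counts share fragments.

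Some Krtap regions were hot spots of the IgG libraries. Krtap5-3 and Krtap6-2 each drew 10 IgG fragments at the start, the former all in WT replicate 1 (density 87.5) and the latter all in WT replicate 2 (density 87.8). Krtap5-5 drew 10, all in KO, and Krtap6-3 drew 8. At Krtap6-2 the WT replicate 2 library was also the high one for H3K27me3, with a start density of 31.4 against 0.326, 1.8 and 1.29 in the other 3 and a body density of 63.9 against 0, 0 and 2.19, and its place among the 5 highest H3K27me3 bodies rests on that library.

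No member was called different between KO and WT. At the starts the quasi-Poisson fit called 0 of 6 tested members for H3K4me3, 0 of 42 for H3K27me3, 0 of 31 for H3K9me3 and 0 of 3 for IgG, and it called 0% of all genes in each of the 4. At an unadjusted p under 0.05 there were 0, 1, 1 and 2 members, and limma-voom called 0 in all 4. Over gene bodies it called 0 of 22, 0 of 46, 0 of 44 and 0 of 2, again with 0% of all genes, and 0, 0, 1 and 2 members had an unadjusted p under 0.05, while limma-voom called 0. Leaving out 1 library leaves a genotype with 1 library, so no count is read from those fits. With 2 animals a genotype the smallest p that an exact permutation test of a single value allows is 0.333.

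The members with the smallest p rested on few fragments. For H3K27me3 at starts this was Krtap6-2, with 2 fragments in KO and 8 in WT (log2 ratio of KO to WT -2.54, SE 1.16, unadjusted p = 0.0123, quasi-Poisson fit), which is the library with the IgG hot spot, and then Krt84, a type II hair keratin, with 6 and 10. For H3K9me3 at starts it was Krtap24-1, with 16 and 5 (1.60, SE 0.88, unadjusted p = 0.0495, quasi-Poisson fit), and Krtap14 with 25 and 11. For H3K4me3 at starts it was Krtap9-3, with 29 and 11 (0.70, SE 0.66), and Krtap17-1 with 8 and 2. None of these passed the adjustment over all genes, and the smallest adjusted p among them was 0.963 (quasi-Poisson fit).

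Over gene bodies the smallest unadjusted p were those of Krt73 (36 and 40 H3K4me3 fragments in KO and WT, log2 ratio -0.85) and Krt72 (17 and 5, 1.06), both of the inner root sheath. For H3K27me3 they were Krt4 (140 and 142, -0.56) and Krt71 (80 and 84, -0.61). For H3K9me3 they were Krt84 (11 and 1, 3.38, SE 2.16) and Krtap22-2 (13 and 2, 2.62, SE 1.76). In IgG they were Krtap5-3 and Krtap6-2, each with 0 fragments in KO and 10 in WT, the hot spots described above. The better covered genes among these were Krt4 and Krt71, with an SE of 0.32 and 0.38. The Krt4 body densities were 13.5 and 6.96 in KO and 18 and 24.3 in WT, on the scale of the autosomal total from which no order of the genotypes is read.

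Over the chromosome 16 cluster the KO library of each pair had more H3K9me3 than its WT sibling. The ratio of KO to WT was 1.285 in pair 1 (5.84 against 4.55) and 1.291 in pair 2 (6.32 against 4.9). In the 12315 autosomal 10-kb bins above the same 95th percentile the pooled ratio was 1.05 and 1.02, and the quartiles of the ratio over bins were 0.888 and 1.18 in pair 1 and 0.757 and 1.05 in pair 2. The flanks did so too: the 500 kb before the cluster had 1.13 in KO and 0.868 in WT in pair 1 and 2.03 and 1.4 in pair 2, and the 500 kb after it 1.58 and 1.49 in pair 1 and 2.41 and 1.86 in pair 2. The excess was thus not particular to the cluster, and it was not tested. Over the cluster the 2 KO values and the 2 WT values did not overlap.

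**Figure D5:**
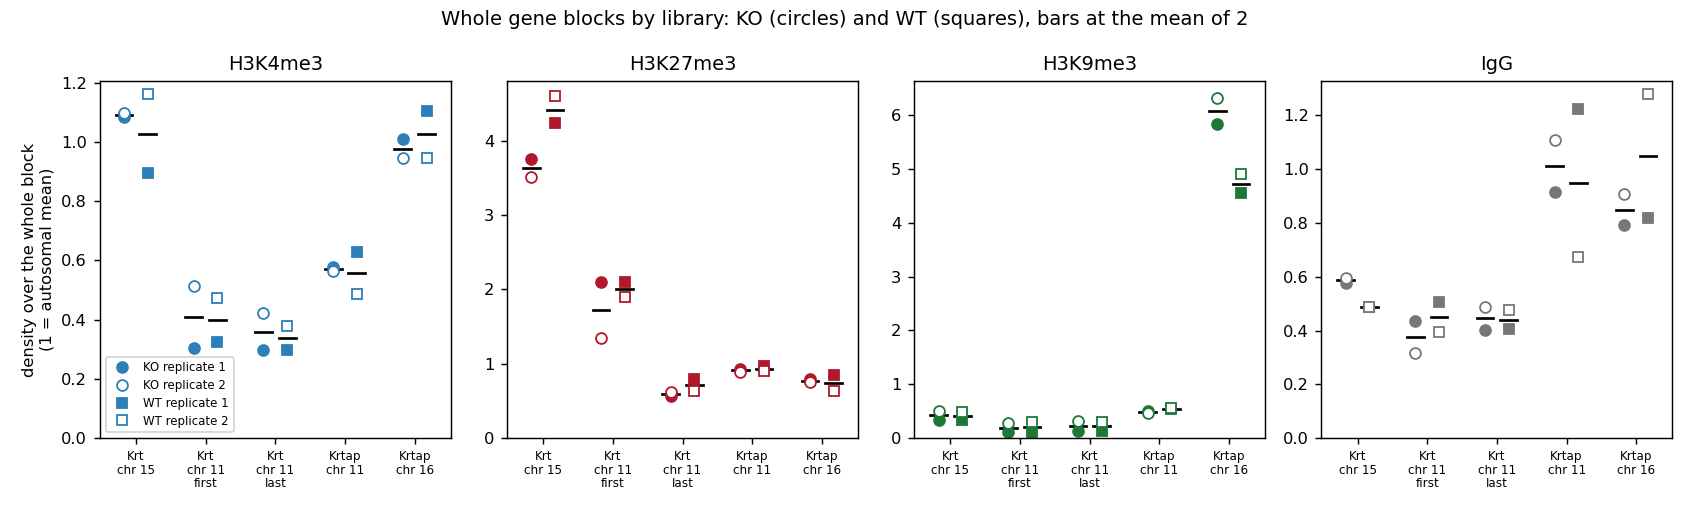
Density over 5 stretches of the clusters in each library, in a panel for each target, with KO as circles, WT as squares, replicate 1 filled and replicate 2 open, and bars at the mean of 2. For H3K27me3 the chromosome 15 stretch lies between 3.51 and 4.6 in the 4 libraries, and for H3K9me3 the chromosome 16 stretch has both KO libraries (5.84 and 6.32) above both WT libraries (4.55 and 4.9).

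The study looked at the sizes of the released fragments across the genome, and the sizes were compared here over the members. Small fragments were those of at most 120 bp, shorter than a nucleosome, and large ones those of at least 150 bp. In the start windows and bodies of all members, the ratio of small to large H3K27me3 fragments was 0.1445 and 0.38 in KO and 0.0845 and 0.246 in WT. For H3K9me3 it was 0.257 and 0.63 in KO and 0.182 and 0.411 in WT. In both marks the KO library was above the WT library of its pair, and replicate 2 was above replicate 1 in both genotypes. For H3K4me3 the ratios were 0.522 and 0.512 in KO and 0.536 and 0.261 in WT, so that KO was above WT in pair 2 and not in pair 1. In IgG they were 1.58 and 1.7 in KO and 0.786 and 0.889 in WT, from 21 to 33 fragments a library.

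The log2 difference of KO minus WT in this ratio was 0.77 and 0.63 in pairs 1 and 2 for H3K27me3, and over all autosomes 0.67 and 0.71. For H3K9me3 it was 0.50 and 0.62, and over the autosomes 0.52 and 0.43. The members thus shifted by about as much as the autosomes for these 2 marks. For H3K4me3 it was -0.04 and 0.97, against 0.76 and 0.97 over the autosomes, and pair 1 held 220 member fragments in KO and 108 in WT. In IgG it was 1.01 and 0.94, against 0.39 and 0.47, and the mean of 0.97 turned to -0.50 when every deposited fragment was counted. Leaving out 1 library breaks the pairs, and the means then ranged widely. The H3K27me3 mean of 0.70 ranged from -0.07 (WT replicate 1 left out) to 1.47 and was 0.0033 with KO replicate 2 left out. That of H3K9me3, 0.56, ranged from -0.09 (KO replicate 2 left out) to 1.20 and was -0.03 with WT replicate 1 left out. That of H3K4me3, 0.47, ranged from -0.05 (WT replicate 2 left out) to 0.99. The ratios themselves differed from the autosomes: relative to the ratio over all autosomes of the same library, H3K27me3 fragments of the members were less often small, with log2 values of -0.44, -0.56, -0.54 and -0.48, and H3K9me3 fragments more often small, with 0.14, 0.42, 0.16 and 0.23. These offsets had 1 sign in all 4 libraries of each mark. For H3K4me3 they were -0.06, -0.32, 0.73 and -0.32.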

How the data were processed

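The authors sequenced the AutoCUT&RUN libraries as paired-end 25 × 25 bp reads and aligned them to mm10 with Bowtie2 (version 2.3.4.3 in the submitters' processing notes). Each deposited file is a list of fragments with chromosome, start, end and length, 1 line a fragment, so that the deposited unit is a coordinate and the counts were made here. Duplicate removal is part of the stated methods, but fragments with identical coordinates remain in the files, and each was counted once per library. No molecular identifiers were used, so intervals cover counting error only.

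A fragment was assigned to a start window (1 kb on either side of the annotated start) or to a gene by its midpoint. Counts of all autosomal protein-coding genes with at least 10 fragments in the libraries compared were fitted by a quasi-Poisson log-linear model with the autosomal total of each library (19 autosomes) as offset. The dispersion was moderated across genes with limma and not allowed under counting variance, and p-values of the F test were adjusted by Benjamini-Hochberg (0.05). KO and WT were compared with 2 libraries each, and marks with IgG and with each other with 4 each, for which the smallest exact permutation p of a single value is 0.0286. Fold ratios with 1 to 3 IgG fragments carry exact 95% intervals, and those with 0 use a floor of 3 fragments over the 4 IgG libraries. Sums over members have no test. The fit was also run on simulated data, and no result of that run is given or used here.

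The replicate numbers mark sibling pairs. Libraries of the same replicate also share number strings in their titles, whose meaning the titles do not state. Deviations of KO and WT from their group means in 10-kb bins correlated at 0.62, 0.26, 0.53 and 0.45 for H3K4me3, H3K27me3, H3K9me3 and IgG, over only 2 pairs. Named genes are the simple epithelial keratins, the 6 called members with the largest ratio over IgG per mark at starts, the 5 with the highest body density per mark, and the 2 with the smallest p per target for KO against WT. Genes named beside these were chosen after their values were seen. The members and lists were chosen with earlier results of these data known. Krt85 was not matched in the annotation, and Krt74 is not annotated as protein-coding. Uniqueness is the share of 25-mers of a region that occur once in the reference genome, with 75% as the limit. Sequences are from the RefSeq tables (GRCm38.p6), and RefSeq and GENCODE starts of the 6 printed promoters lie 0 to 140 bp apart. Python 3.11.15, numpy 2.4.6, pandas 2.3.3, scipy 1.17.1, matplotlib 3.10.9, R 4.3.3 and limma 3.58.1 were used. Alternatives were other windows, filters, scalings and tests, every deposited fragment, each animal left out, and the replicate block.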

Additional observations from a re-analysis of the deposited data

How the results depend on the processing

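Of 259 alternatives over 29 results, 242 left a result within its spread, 16 moved it and 1 reversed it. For a result given as a mean, a change of sign was counted as reversed only where the mean exceeded its SD. The small to large means of H3K27me3 and H3K9me3, which changed sign with 1 library left out, are therefore not counted as reversed. Counts of called members depended on which animals were kept. Leaving out 1 animal at a time, H3K27me3 over IgG at starts ranged from 14 to 25 (26 with all), over bodies from 13 to 25 (23), H3K4me3 over IgG at starts from 1 to 3 (5), over bodies from 3 to 4 (6), and the H3K27me3 difference of KO and WT over bodies from 0 to 1 (0). With 500 bp on either side H3K4me3 at starts gave 1, and limma-voom gave 1 for H3K9me3 over bodies. The replicate block, which pairs siblings or the libraries of 1 animal, gave 20 for H3K27me3 over IgG at starts and changed no call between KO and WT. Without members under 75% unique 25-mers, an alternative chosen after seeing the data, the log2 ratio of Krt to Krtap was 0.85 for H3K4me3 and -0.60 for IgG at starts and 0.29 for H3K4me3 over bodies, and IgG over bodies could not give a value. With every deposited fragment counted the IgG ratio over bodies was -1.01, and the KO minus WT log2 ratio of small to large IgG fragments turned from 0.97 to -0.50. The cause was not tested for any of these. All 110 starts held 70 IgG fragments, so single-gene folds over IgG are bounds or wide intervals.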

Other observations

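H3K4me3 at starts of the genes that work with keratins was called over IgG by the quasi-Poisson fit for 1 of 4 desmosome and plakin genes tested (Jup, plakoglobin), for 3 of 5 regulators (Klf4, Lef1 and Trp63), for 2 of 4 other intermediate filament genes (the lamins Lmna and Lmnb1) and for 0 of 1 cornified envelope genes, against 75% of all genes tested. So few genes were tested in each list that these counts are read no further.

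H3K9me3 start density of the 57 Krtap genes had a Spearman correlation of -0.64 with the GC percent of the 2-kb window. The correlation runs across genes that share clusters, and the chromosome 16 cluster holds 24 of them.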
